A study of Homo sapiens with 6 samples.

Results

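The genes described here are those whose symbols begin with KCN, the naming root of potassium channels, and end in a number after further letters. Of 60609 genes in the count files, 95 bear such a symbol, and the 45 with a raw total of at least 10 reads over the 6 libraries form the set. K562 is an established human leukaemia line. In the line used here the endogenous EP400, the ATPase subunit of the TIP60 chromatin complex, is fused at every allele to a dTAG degron, so that dTAGV-1 removes the protein. WT libraries came from cells that also express full-length EP400 from the AAVS1 safe-harbour locus, and Delta-TRRAP libraries from cells that express EP400 lacking the SANT and HD domains, through which TRRAP is held in the complex. All cells of both groups carry the degron and received 500 nM dTAGV-1 over 24 h, and each group has 3 poly(A) RNA-seq libraries, compared to learn how RNA levels depend on holding TRRAP in TIP60. Each line was a single clone, so the clone cannot be told apart from the genotype, and p-values measure the spread between cultures of one clone.

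Potassium channels let potassium leave the cell down its gradient and so set the membrane potential. Pore-forming subunits fall into voltage-gated channels, inward rectifiers, channels with a pair of pore domains that carry background leak, and channels opened by intracellular calcium or sodium, while auxiliary subunits modify their gating. Many of these genes are known for roles in neurons, heart and kidney. In red cells the calcium-activated channel KCNN4, called the Gardos channel, controls cell volume, and KCNH2, the hERG channel of the heart, is also known from leukaemia cells.

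Libraries held 35076835 to 42616061 counts in genes. EP400 RNA, which can come from the tagged locus and from the transgene and does not report the protein, had a log2 fold change of 0.14 ± 0.11 (SE; edgeR adjusted p 0.272), so it does not check the labels. Of the K562 markers of the erythroid and megakaryocytic lineages, all 14 were expressed, whereas the B-cell marker MS4A1 had no counts, although the submitters label the cell type as lymphoblast. Values below are normalized counts, that is, reads scaled by TMM to a common depth, and log2 fold changes are Delta-TRRAP over WT with a standard error. A gene was called at an edgeR adjusted p of 0.01 or less with a fold change of at least 2, the thresholds of the study. "Rose" and "fell" are used for genes that passed the adjusted p, whether or not they passed the fold change.

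Of the 45 potassium channel genes, 34 passed the filter of a mean normalized count of 5 and were tested, and the other 11 were too low. Delta-TRRAP cells had 9 of the 34 called higher and 4 called lower. Called higher were KCND2, KCNAB1, KCNAB2, KCNJ6, KCNJ10, KCNJ15, KCNK6, KCNK9 and KCNMA1, and called lower were KCNQ5, KCNT2, KCNN4 and KCNH4. The share called higher was 26.5% of those tested, against 16.5% of all 19114 genes tested, and the share called lower was 11.8%, against 6.08% of all genes. Without regard to fold change, 24 of 34 passed the adjusted p (70.6%, against 58.3% of all genes), 12 in each direction. The median log2 fold change was -0.10 over the tested members and 0.03 over all genes, and the sign of the member median changed with the scaling. The filter on mean counts lets in genes that are high in one group only, so these shares describe the tested members and not all 45. Of the members called higher, KCNJ10 and KCNMA1 averaged 0.64 and 4.29 normalized counts in WT and passed the filter only through Delta-TRRAP.

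Upward calls were most frequent among the low members, as they were over all genes. Among the 17 tested members with a mean normalized count under 100, 7 were called higher (41.2%) and 1 lower (5.88%), where the shares over all genes of that range were 30.8% and 6.31%. Among the 15 members from 100 to under 1000, 2 were called higher (13.3%) and 3 lower (20%), against 13.8% and 8.89%. Neither of the 2 members above 1000, KCNH2 and KCNK5, was called, though both fell (all genes of that range: 2.41% higher, 3.89% lower). WT and Delta-TRRAP ranges were separate in 26 of 34 members (76.5%), against 71.1% of all genes.

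**Figure D1:**
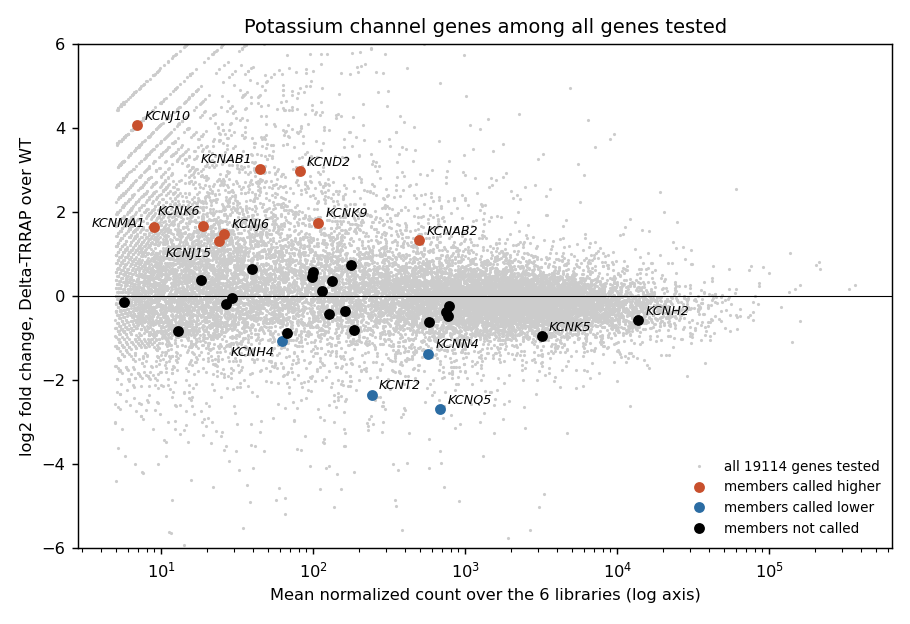
Log2 fold change (Delta-TRRAP over WT, vertical axis) against the mean normalized count over the 6 libraries (log axis) for all 19114 genes tested in grey, with the 34 tested potassium channel genes as large points coloured by call. Called rises lie mostly below a mean of 100, the falls of KCNT2, KCNQ5 and KCNN4 lie between 100 and 1000, and 171 genes lie beyond the vertical limits of 6.

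The reads of this gene class are dominated by one channel. Summed over all 95 KCN symbols, normalized counts were 28180, 27541 and 28289 in the WT libraries and 19186, 18945 and 18282 in the Delta-TRRAP libraries. KCNH2 took 57.9% to 58.5% of that sum in WT, and in Delta-TRRAP 57.6% to 59.1%. Without KCNH2 the sum was 11692 ± 237 in WT and 7814 ± 52.3 in Delta-TRRAP (SD, n = 3 each). The leading gene and the summed remainder were thus both lower, and the groups did not overlap. A few abundant genes made most of the fall in the remainder. Mean normalized counts went from 4195 to 2169 for KCNK5, 1180 to 183 for KCNQ5, 817 to 316 for KCNN4 and 405 to 79.4 for KCNT2. Other members rose, such as KCNAB2 from 283 to 713, and by the adjusted p alone 12 tested members rose and 12 fell. KCN symbols with any read numbered 50 to 51 per WT library and 54 to 56 per Delta-TRRAP library. The same count was not made over all genes, so whether this is particular to KCN symbols was not tested.

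Per kilobase of the canonical transcript, which allows genes to be compared, WT levels were highest for KCNH2 at 3800 ± 42.7 normalized counts per kilobase, KCNK5 at 1109 ± 15.6 and KCNMB3 at 774 ± 69.2 (SD, n = 3 each). Then came KCNN4 at 418 ± 26.4 and KCNK1 at 407 ± 17.2, which did not differ beyond their spread, KCNE3 at 291 ± 21.0 and KCNQ5 at 185 ± 17.1. In Delta-TRRAP the order began with KCNH2 at 2561 ± 96.8, KCNMB3 at 657 ± 70.4 and KCNK5 at 573 ± 18.8 per kilobase. KCNAB2, at 67.8 ± 4.69 per kilobase in WT, reached 171 ± 17.7 in Delta-TRRAP and did not differ there beyond the spread from KCNN4 at 162 ± 5.30. The level of KCNMB3 is uncertain, because 864 of its exon bases also belong to the pseudogene LRRFIP1P1 on the same strand.

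**Figure D2:**
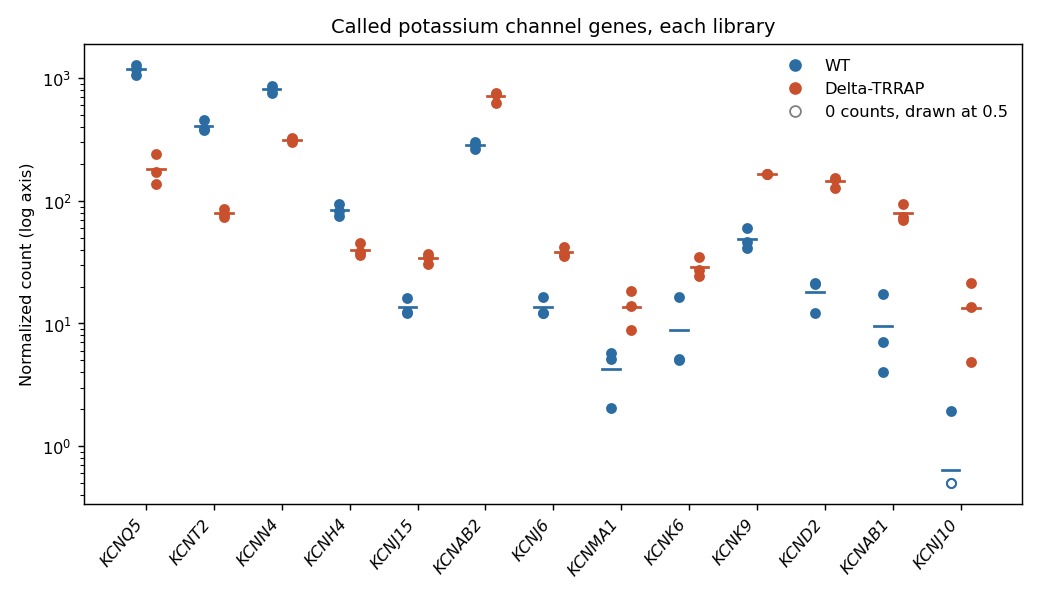
Normalized counts (log axis) of the 13 called potassium channel genes in each of the 3 WT and 3 Delta-TRRAP libraries, ordered by log2 fold change, with bars at group means and libraries with 0 counts drawn open at 0.5. The groups separate for every gene shown, with WT and Delta-TRRAP ranges of 1069 to 1286 and 138 to 239 for KCNQ5, and of 0 to 1.92 and 4.87 to 21.2 for KCNJ10.

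Promoter sequences are shown for 5 of the called genes, because their RNA differed strongly or because they hold the E-box CACGTG, the binding motif of MYC and MAX, a pair of factors of which the study names MYC as a partner of TRRAP. RefSeq promoters on GRCh38.p14 within 500 bases of the canonical start were found for 34 of the 45 members, those without one including KCNAB3, KCNG1, KCNH3, KCNJ4, KCNJ11, KCNJ15, KCNK9, KCNK15 and KCNMB4. The sequences are the 250 bases before the start, 5′ to 3′ on the strand of the gene. Capitals mark CACGTG in KCNN4 (chr19:43780974-43781223, minus strand), KCNH4 (chr17:42181143-42181392, minus strand) and KCND2 (chr7:120272925-120273174, plus strand). In KCNQ5 (chr6:72621814-72622063, plus strand) and KCNAB1 (chr3:156120328-156120577, plus strand), which have no CACGTG there, they mark a CCAAT box on the opposite strand, which reads here as its reverse complement.
KCNN4: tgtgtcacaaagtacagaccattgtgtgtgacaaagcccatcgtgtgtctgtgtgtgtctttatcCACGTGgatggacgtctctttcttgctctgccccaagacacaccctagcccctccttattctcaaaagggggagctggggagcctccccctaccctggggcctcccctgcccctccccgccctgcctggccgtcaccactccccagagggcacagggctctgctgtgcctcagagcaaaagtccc
KCNH4: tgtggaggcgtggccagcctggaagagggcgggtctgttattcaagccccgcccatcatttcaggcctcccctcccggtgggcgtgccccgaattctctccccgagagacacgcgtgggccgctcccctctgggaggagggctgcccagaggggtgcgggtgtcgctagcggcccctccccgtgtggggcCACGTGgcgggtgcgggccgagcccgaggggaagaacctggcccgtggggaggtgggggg
KCND2: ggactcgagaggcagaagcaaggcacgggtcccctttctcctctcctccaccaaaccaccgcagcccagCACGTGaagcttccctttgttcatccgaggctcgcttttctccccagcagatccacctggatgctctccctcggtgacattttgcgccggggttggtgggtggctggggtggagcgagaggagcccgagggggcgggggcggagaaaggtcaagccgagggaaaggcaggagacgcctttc
KCNQ5: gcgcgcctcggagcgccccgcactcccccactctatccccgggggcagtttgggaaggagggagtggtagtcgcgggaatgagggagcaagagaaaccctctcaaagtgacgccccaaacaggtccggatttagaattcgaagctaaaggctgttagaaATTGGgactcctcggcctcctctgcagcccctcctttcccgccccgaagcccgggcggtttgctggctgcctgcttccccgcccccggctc
KCNAB1: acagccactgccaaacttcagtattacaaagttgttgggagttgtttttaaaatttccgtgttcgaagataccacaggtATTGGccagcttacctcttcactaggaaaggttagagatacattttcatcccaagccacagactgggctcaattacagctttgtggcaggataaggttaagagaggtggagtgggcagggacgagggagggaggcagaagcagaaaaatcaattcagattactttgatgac

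The E-box began 185 bases before the start in KCNN4, 60 in KCNH4 and 181 in KCND2. In windows of 300 bases, including 50 after the start, CACGTG stood in 3 of 34 members (8.82%) and in 8.5% of all 17801 promoters of that kind, and in 9.92% of those of tested genes. The 3 members with the motif were all called, KCNN4 and KCNH4 lower and KCND2 higher, so the match did not go with one direction. Of all 1070 tested genes with the motif, 101 were called higher (9.44%) and 70 lower (6.54%), or 16% either way. Of the 10783 tested genes with a promoter of that kind, with or without the motif, 1493 were called higher and 631 lower. Other motifs, each sought on both strands without regard to overlaps, were CCAAT in 13 of 34 members (38.2%, against 36.4% of all promoters), the erythroid-factor motif AGATAA in 3 (8.82%, against 7.87%), and the core promoter motif TATAAA in 3 (8.82%, against 9.71%). A match is a run of letters and not a binding site, and read counts per gene do not show which start was used. The ratio of observed to expected CpG was at least 0.6, a usual mark of CpG islands, in 21 of 34 members (61.8%), against 64.8% of all promoters and 83% of those of tested genes. It was 0.22 in KCNN4 and 0.32 in KCNAB1, against 0.72 in KCNH4, 0.74 in KCND2 and 0.75 in KCNQ5.

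The voltage-gated alpha subunits form the pores of the largest class, with 40 symbols. Only 13 of them reached 10 reads and 11 were tested, of which KCND2 was called higher (9.09%, against 16.5% of all genes) and KCNQ5 and KCNH4 lower (18.2%, against 6.08%). A further 5 passed the adjusted p below the fold change threshold, KCND1 and KCNH5 among those upward and KCNH2 and KCNC4 among those downward, while the modifier subunits KCNG1 (edgeR adjusted p 0.236) and KCNS3 (0.512) did not pass. KCNQ5 (ENSG00000185760.15, chromosome 6, 72621792 to 73198853), a subunit of the slow M-type current, showed the largest fall of all members. It measured 1069, 1184 and 1286 normalized counts in WT and 173, 239 and 138 in Delta-TRRAP. Every Delta-TRRAP library thus lay far below every WT library, and KCNQ5 was 6.41-fold lower (log2 fold change -2.68 ± 0.13, edgeR adjusted p 7.09e-11). Its share of all KCN reads was 3.79% to 4.55% in WT libraries and in Delta-TRRAP libraries 0.752% to 1.26%. The 6 genes within 1 Mb of KCNQ5 that averaged 100 or more normalized counts had a median log2 fold change of 0.12. Neighbours of other members are taken by the same limits.

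KCND2 (ENSG00000184408.10, chromosome 7, 120273175 to 120750337) encodes a pore of the rapidly inactivating A-type current of neurons and heart. Its normalized counts were 21.3, 21.1 and 12.2 in WT and 127, 152 and 153 in Delta-TRRAP, with the groups far apart. The rise was 7.85-fold (log2 fold change 2.97 ± 0.19, edgeR adjusted p 2.09e-09), the highest fold among members with more than 100 normalized counts in Delta-TRRAP. Its paralogue KCND1, chosen for mention after its values were seen, rose 1.5-fold from 79.9 ± 11.8 to 119 ± 4.05 normalized counts (SD, n = 3 each; edgeR adjusted p 0.00141). KCND3, the third of the family, had 2 reads in all.

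The KCNH genes encode the EAG, hERG and ELK channels. KCNH2, which carries a repolarizing current in heart muscle, fell from 16448, 16103 and 16382 normalized counts in WT to 11330, 11113 and 10527 in Delta-TRRAP. The groups did not overlap, and the level was 1.48-fold lower (log2 fold change -0.57 ± 0.05, edgeR adjusted p 7.54e-08). KCNH4 (ENSG00000089558.9, chromosome 17, 42156891 to 42181142), of the ELK branch, had 94.2, 74.8 and 83.4 normalized counts in WT and 45.1, 36.1 and 38.1 in Delta-TRRAP, where all 3 libraries were lower. It was 2.11-fold lower (log2 fold change -1.08 ± 0.17, edgeR adjusted p 3.55e-05). That call stood at the fold change threshold and was lost without WT replicate 1, at -0.99, and when libraries were scaled by size alone, at -0.94, or by the upper quartile, at -0.98. KCNH5, an EAG channel of brain, moved the other way and rose 1.67-fold, from 132 ± 10.4 to 221 ± 22 normalized counts (SD, n = 3 each; edgeR adjusted p 2.38e-05).

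KCNC4, a fast channel that shortens action potentials, was named after its values were seen and fell 1.84-fold, from 87.6 ± 3.93 to 47.3 ± 6.19 (SD, n = 3 each; edgeR adjusted p 1.05e-04). All 8 KCNA symbols, the Shaker-type pores, fell short of the rule: 6 had no read in any library and the highest, KCNA7, had 7 reads over the 6 libraries.

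**Figure D3:**
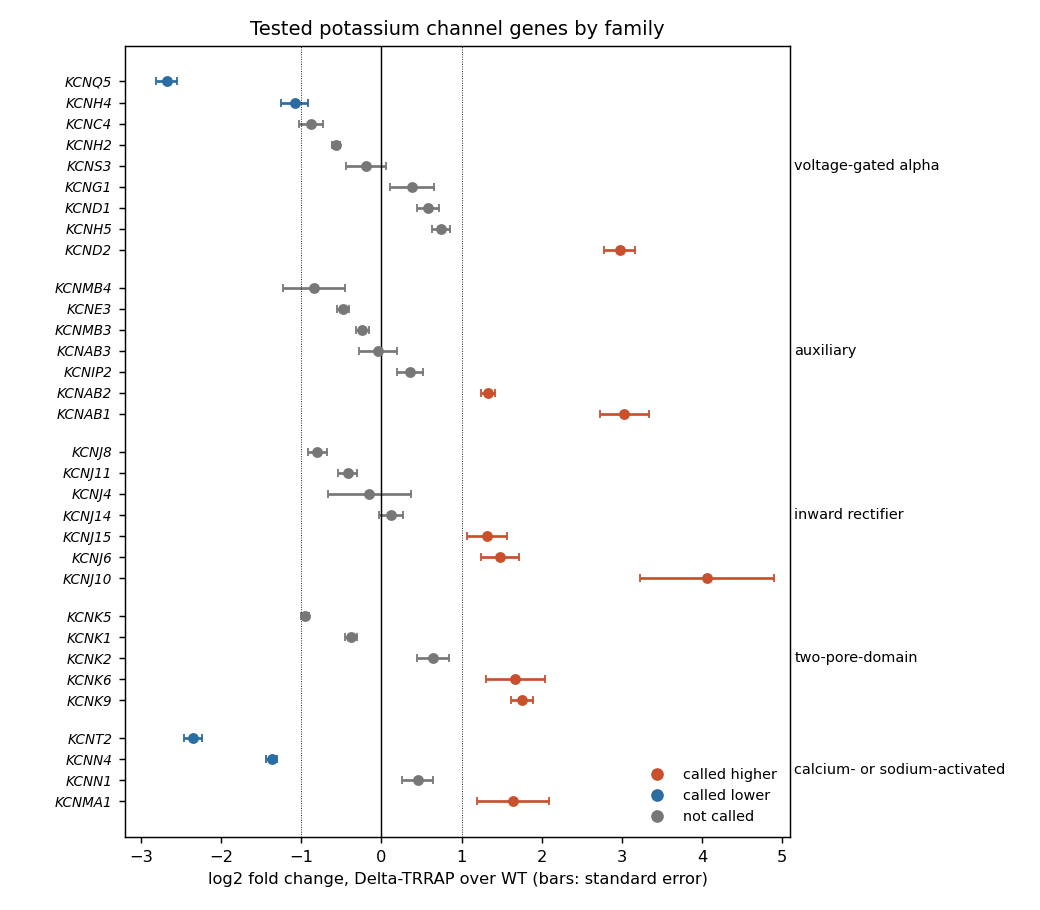
Log2 fold change of Delta-TRRAP over WT (horizontal axis) with its standard error for the tested potassium channel genes reported here, grouped by family and coloured by call, with dotted lines at a 2-fold difference. Values run from -2.68 for KCNQ5 to 4.06 for KCNJ10, and each family holds genes on both sides of 0.

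Auxiliary subunits had 16 symbols, 9 members and 7 tested genes, of which 2 were called higher and none lower by edgeR, where 28.6% higher stood against 16.5% of all genes. Both calls were beta subunits of Shaker-type channels, cytoplasmic proteins with an oxidoreductase fold that bind the pore. KCNAB2 (ENSG00000069424.15, chromosome 1, 5990927 to 6101193) rose from 303, 264 and 283 normalized counts in WT to 751, 759 and 627 in Delta-TRRAP. All Delta-TRRAP libraries were higher, by 2.52-fold (log2 fold change 1.33 ± 0.09, edgeR adjusted p 2.63e-09). KCNAB1 (ENSG00000169282.17, chromosome 3, 156037701 to 156539138) had 4.05, 17.3 and 7.12 normalized counts in WT and 69.6, 94.6 and 74 in Delta-TRRAP. The rise was 8.17-fold (log2 fold change 3.03 ± 0.31, edgeR adjusted p 3.74e-07), and 13.9-fold without WT replicate 2, which held 18 of the 29 WT reads. KCNAB3, the remaining beta subunit, measured 29.7 ± 5.03 and 29 ± 6.99 normalized counts (SD, n = 3 each) and did not pass, with an edgeR adjusted p of 0.896. The beta subunits were thus present while their KCNA partners were at or near 0 reads in both groups.

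KCNE3, a single-pass subunit best known as a partner of KCNQ1, fell from 962, 882 and 834 to 645, 652 and 621 normalized counts. The groups did not overlap and the difference was 1.4-fold (log2 fold change -0.48 ± 0.07, edgeR adjusted p 9.32e-06). KCNQ1 itself had 1 read over the 6 libraries. KCNIP2, a calcium-binding partner of the KCND channels, measured 117, 106 and 125 normalized counts in WT and 151, 112 and 185 in Delta-TRRAP. These ranges overlapped, and KCNIP2 did not pass (log2 fold change 0.36 ± 0.16, edgeR adjusted p 0.0542). KCNMB3, a beta subunit of the large-conductance calcium-activated channel, measured 840 ± 75.1 in WT and 713 ± 76.4 in Delta-TRRAP (SD, n = 3 each), with an edgeR adjusted p of 0.0185. KCNMB4, a beta subunit of the same channel, measured 16.4 ± 4.88 and 9.17 ± 5.09 (SD, n = 3 each) and did not pass either (edgeR adjusted p 0.0721).

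Inward rectifiers had 16 symbols, 8 members and 7 tested genes, and 3 were called higher (42.9%, against 16.5% of all genes). KCNJ6 (ENSG00000157542.11, chromosome 21, 37607373 to 38121345) encodes a channel opened by G proteins, and KCNJ15 (ENSG00000157551.19, chromosome 21, 38155549 to 38307357) a rectifier of kidney and other epithelia. These are the only members less than 1 Mb apart, with 34 kb between them. KCNJ6 had 12.2, 16.3 and 12.2 normalized counts in WT and 35.3, 41.9 and 37 in Delta-TRRAP, a 2.78-fold rise (log2 fold change 1.48 ± 0.24, edgeR adjusted p 5.76e-05). KCNJ15 had 16.2, 12.5 and 12.2 in WT and 30.4, 37 and 34.9 in Delta-TRRAP, a 2.49-fold rise (log2 fold change 1.32 ± 0.25, edgeR adjusted p 2.11e-04). In both genes every Delta-TRRAP library lay above every WT library.

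Genes around the pair did not all move the same way. Between the centres of KCNJ6 and KCNJ15, DSCR4 rose by 0.70 ± 0.11 on the log2 scale (edgeR adjusted p 4.13e-05) and DSCR8 fell, at -0.40 ± 0.07 (1.45e-04). The nearest genes beyond the pair with 100 or more normalized counts on average were DYRK1A at -0.04 ± 0.05 and ETS2 at -0.37 ± 0.05. Within 1 Mb, the 9 such neighbours of KCNJ6 had a median of 0.02 and the 8 of KCNJ15 a median of -0.29, with none called. The low gene DSCR10, also between the outer ends of the pair, was called higher at 1.81 ± 0.33 (edgeR adjusted p 1.55e-04). DSCR4-IT1, likewise low and between them, rose by 0.86 ± 0.15 without a call (edgeR adjusted p 1.30e-04). KCNJ6 shares 320 exon bases with DSCR4 and KCNJ15 shares 125 with DSCR8 on the same strand, where reads cannot be assigned.

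**Figure D4:**
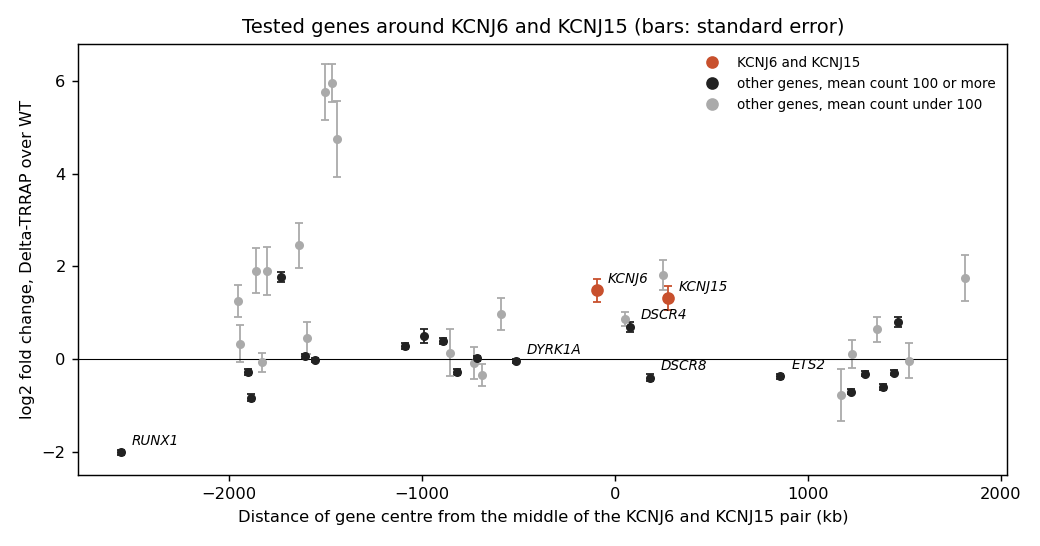
Log2 fold change (Delta-TRRAP over WT, with standard error) of tested genes around KCNJ6 and KCNJ15, from RUNX1 on one side, plotted by the distance of the gene centre from the middle of the pair in kb. KCNJ6 at 1.48 and KCNJ15 at 1.32 lie above DYRK1A at -0.04 and ETS2 at -0.37, black points being genes that average 100 or more normalized counts and grey points lower genes.

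KCNJ10 (ENSG00000177807.10, chromosome 1, 159998651 to 160070160), the rectifier by which glia take up potassium, was close to absent in WT. It had 0, 2 and 0 reads in WT and 14, 5 and 20 in Delta-TRRAP, with an edgeR adjusted p of 5.17e-04. KCNJ10 passed the count filter only through Delta-TRRAP. The ratio of depth-scaled reads was 19.6 (exact 95% counting interval 5.08 to 168), and both WT reads came from replicate 2. Counting intervals here cover counting error only. The pores of the ATP-sensitive channel, which couples metabolism to excitability, went the other way. KCNJ8 fell from 230, 257 and 222 to 163, 120 and 124 normalized counts, 1.74-fold (edgeR adjusted p 2.91e-05), and KCNJ11 from 156, 147 and 134 to 114, 113 and 98.4, 1.34-fold (edgeR adjusted p 0.00485). In neither gene did the groups overlap, but KCNJ11 missed the adjusted p in 7 of 14 alternative fits, DESeq2 (0.0125) and library size scaling (0.0395) among them, while KCNJ8 passed in every one. KCNJ14 measured 108 ± 5.93 and 119 ± 29 normalized counts (SD, n = 3 each) and did not pass (edgeR adjusted p 0.492), shares 406 exon bases with GRWD1 and another gene, and its direction turned without Delta-TRRAP replicate 3, at -0.10. KCNJ4, a strong rectifier of brain and heart, measured 5.98 ± 2.03 and 5.43 ± 3.28 (SD, n = 3 each; edgeR adjusted p 0.805).

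Channels with a pair of pore domains (KCNK) had 15 symbols, 9 members and 5 tested genes, of which 2 were called higher (40%, against 16.5% of all genes) and none lower by edgeR. All 5 passed the adjusted p, as did 58.3% of all genes, 3 upward and 2 downward, though KCNK2 stood at the threshold. KCNK9 (ENSG00000169427.8, chromosome 8, 139600838 to 139704109), an acid-sensitive leak channel, had 46.6, 41.2 and 60 normalized counts in WT and 167, 165 and 166 in Delta-TRRAP. The separation was complete, with a 3.37-fold rise (log2 fold change 1.75 ± 0.14, edgeR adjusted p 3.13e-08). KCNK6 (ENSG00000099337.5, chromosome 19, 38319845 to 38332076), a weakly rectifying member of the class, had 5.07, 16.3 and 5.09 in WT and 24.5, 27.3 and 34.9 in Delta-TRRAP. It rose 3.18-fold (log2 fold change 1.67 ± 0.37, edgeR adjusted p 8.92e-04), and 5.56-fold without WT replicate 2, which held 17 of its 27 WT reads. KCNK6 rose in a stretch that was otherwise lower, since its 28 neighbours within 1 Mb had a median log2 fold change of -0.60, with 7 called lower and 1 higher. KCNK2, a stretch-sensitive leak channel named after its values were seen, measured 30.7 ± 5.82 and 47.9 ± 3.5 normalized counts (SD, n = 3 each). Its edgeR adjusted p of 0.00961 missed the threshold in 11 of 13 alternative fits, where it ranged up to 0.0511.

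The more abundant KCNK genes fell. KCNK5, an alkaline-activated leak channel of kidney and lymphocytes, had 4149, 4175 and 4262 normalized counts in WT and 2246, 2155 and 2105 in Delta-TRRAP. It was 1.93-fold lower (log2 fold change -0.95 ± 0.05, edgeR adjusted p 1.91e-10), just short of the fold change threshold, and its 5 neighbours within 1 Mb had a median of 0.58, with 2 called higher. KCNK1 fell 1.3-fold, from 821, 881 and 818 to 672, 596 and 665 (edgeR adjusted p 9.40e-05).

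Channels gated by calcium or sodium had 8 symbols, 6 members and 4 tested genes, with 2 called lower (50%, against 6.08% of all genes) and 1 higher (25%, against 16.5%). KCNN4 (ENSG00000104783.14, chromosome 19, 43766533 to 43780976), the Gardos channel, had 865, 763 and 824 normalized counts in WT and 326, 305 and 318 in Delta-TRRAP. All Delta-TRRAP libraries were lower, by 2.58-fold (log2 fold change -1.37 ± 0.07, edgeR adjusted p 1.95e-10), while the 25 neighbours within 1 Mb had a median of -0.13 with none called lower. KCNT2 (ENSG00000162687.17, chromosome 1, 196225779 to 196609225), a sodium-activated channel, had 384, 376 and 455 in WT and 78.4, 85.8 and 74 in Delta-TRRAP. It was 5.08-fold lower (log2 fold change -2.35 ± 0.11, edgeR adjusted p 7.47e-11), and its 5 neighbours had a median of -0.58 with none called. KCNMA1 (ENSG00000156113.23, chromosome 10, 76869601 to 77638369), the pore of the large-conductance calcium-activated channel, had 2.03, 5.76 and 5.09 normalized counts in WT and 8.83, 18.5 and 13.8 in Delta-TRRAP. It was called higher (log2 fold change 1.64 ± 0.45, edgeR adjusted p 0.00461), a call that was lost with DESeq2 (adjusted p 0.0181), without WT replicate 1 (edgeR adjusted p 0.026) and without Delta-TRRAP replicate 2 (edgeR adjusted p 0.0243). KCNN1, a small-conductance channel, measured 82.1 ± 28.7 in WT and 113 ± 1.99 in Delta-TRRAP (SD, n = 3 each) and did not pass (edgeR adjusted p 0.046).

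The 11 members under the count filter were KCNE1, KCNE5, KCNH3, KCNH8, KCNJ16, KCNK3, KCNK7, KCNK13, KCNK15, KCNN2 and KCNN3, with at most 27 reads each. KCNN2, a small-conductance calcium-activated channel, had no read in WT and 6, 1 and 6 in Delta-TRRAP, at least 4.36-fold higher against a floor of 3 reads over the WT group. KCNK3, an acid-sensitive leak channel like KCNK9, had 2 WT reads and 23 Delta-TRRAP reads, or 11.6 times as many after depth scaling (exact 95% counting interval 2.86 to 101). When the filter was replaced by a raw total of 10 reads, these 2 genes were also called higher, making 11 of the 45 called higher and 4 lower, where 15.6% and 5.38% of the 23361 genes then tested were. Intervals of the ratio excluded 1 for 3 more genes, KCNH3 and KCNK13, each at 5.04 (1.07 to 47.3), and KCNJ16, at 0.392 (0.138 to 0.983), which covers counting error and not the spread between libraries. None of these 3 passed in the fit with a raw total of 10 (edgeR adjusted p 0.0961, 0.0783 and 0.114). Their WT and Delta-TRRAP ranges overlapped. At the threshold of the rule itself, KCNK7 was just inside with 10 reads and KCNMB2 just outside with 8. KCNJ12 and KCNJ18 are near-identical copies whose unique reads, 7 and 6, may understate them.

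Genes of potassium handling outside the KCN names were listed from general knowledge. Of 52 such genes 35 were tested, 6 were called higher and 1 lower (all genes: 16.5% and 6.08%; median log2 fold change -0.01), and 11 rose and 8 fell by the adjusted p alone. Those higher included ABCC9, SLC12A7, SGK1, TMEM38A and FXYD7, and lower was PIEZO2. ABCC9, the sulfonylurea receptor that assembles with the KCNJ8 and KCNJ11 pores, rose from 309 ± 9.43 to 799 ± 64.3 normalized counts (SD, n = 3 each; log2 fold change 1.37 ± 0.08, edgeR adjusted p 3.56e-10), opposite to both pores. ABCC8, the other receptor, had 3 reads in all. CALM2 and CALM3, which encode calmodulin, the calcium sensor of KCNN4, had log2 fold changes of -0.77 ± 0.06 and -0.86 ± 0.05 (edgeR adjusted p 3.86e-08 and 8.47e-10).

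Carriers and regulators differed among themselves. SLC12A2, which brings potassium in with sodium and chloride, changed by -0.11 ± 0.06 and did not pass (edgeR adjusted p 0.098), while SLC12A7, which carries it out with chloride, rose from 6.99 ± 1.85 to 37.9 ± 8.22 (SD, n = 3 each; edgeR adjusted p 4.36e-06). SGK1, a kinase that acts on many ion channels, rose from 386 ± 9.9 to 1096 ± 69 (SD, n = 3 each; 2.84-fold, edgeR adjusted p 3.13e-11). PIEZO1, the mechanosensitive calcium channel of red cells, measured 9143 ± 633 and 8227 ± 541 (edgeR adjusted p 0.042), and PIEZO2 fell from 104 ± 10 to 50.4 ± 3.69 (log2 fold change -1.05 ± 0.15, edgeR adjusted p 1.31e-05), which was no call without WT replicate 3. Of the other groups, the most abundant were TMEM38B (-0.35 ± 0.05), AKAP9 (0.28 ± 0.06), and LRRC8B (-0.08 ± 0.05), which did not pass. FXYD7 rose by 1.85 ± 0.53 and TMEM38A by 1.16 ± 0.27 on the log2 scale, with edgeR adjusted p of 0.00578 and 0.00157, the former missed in 5 of 13 alternative fits, DESeq2 (0.037) among them. LRRC38, an auxiliary subunit of KCNMA1, was under the filter with 20 reads in Delta-TRRAP and none in WT.

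Because many of these channels belong to neurons and muscle, markers of such cells were read in the same libraries. Over all genes tested 16.5% were called higher and 6.08% lower, and with a mean under 100 the shares were 30.8% and 6.31%. Of 9 neuronal markers 2 were tested, SYT1 and GAP43, and both were called higher, RBFOX3, STMN2, NEFL and INA being at 0, and their summed normalized counts ranged from 83.4 to 97.3 in the WT libraries and from 305 to 352 in the others. Of 9 muscle markers 3 were tested and 2, TNNI3 and DES, called lower, with MYL2 and MYOD1 at 0 and sums of 1124 to 1194 and 434 to 464. Of 9 fibroblast markers 5 were tested and 3, COL1A2, PDGFRB and POSTN, called higher, with LUM and PDGFRA at 0 and sums of 35.5 to 57.0 and 929 to 991. COL1A2 alone averaged 876 in Delta-TRRAP and made most of that sum, while COL1A1 and DCN did not pass (edgeR adjusted p 0.862 and 0.454). In WT, COL1A2, PDGFRB and POSTN averaged 1.62, 1.65 and 0, so they passed the count filter only through Delta-TRRAP. Of the 14 erythroid and megakaryocytic markers 5 were called higher and 2, LMO2 and ITGA2B, lower, with sums of 38070 to 41392 and 70542 to 77239. Of 7 lymphocyte markers 4 were tested and none called by edgeR, with sums of 505 to 515 and 446 to 472. The part of these shifts in the potassium channel results was not tested. In bulk RNA, fewer cells that express a gene and less RNA in each cell cannot be told apart.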

How the data were processed

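Poly(A) RNA was sequenced from 3 WT and 3 Delta-TRRAP cultures, grouped by sample title. The authors aligned uniquely mapping reads to hg38 with STAR and counted them per GENCODE gene with HTSeq 2.0.2 in reverse-stranded union mode, and deposited raw counts, which were used here. Discarding multiply mapping reads lowers genes with near-identical copies. A deposited table of normalized values, of which 3 columns belong to samples not analysed here, and the authors' table of fold changes and p-values were not used.

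Genes with a mean TMM-normalized count of at least 5 were tested with edgeR 4.0.16 (R 4.3.3; quasi-likelihood F test, group as the term, TMM set again on the genes kept), with Benjamini-Hochberg adjustment over all 19114. Depth was 35076835 to 42616061 counts per library. Alternatives were DESeq2 1.42.0, limma-voom (limma 3.58.1), other scalings, filters and thresholds, a term for the replicate number, and fits without each library in turn. Named were members called, members with a mean of at least 100 or with 0 counts in a group, and called or most abundant genes of each potassium-handling subgroup; other genes were named after their values were seen. The members and lists were chosen with earlier results of these data known. Positions and lengths are from GENCODE release 44 (GRCh38), in which all 45 members were found, and promoters from RefSeq. Some genes of these families are not reported here. Errors are SD over 3 libraries for counts and SE for log2 fold changes.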

Additional observations from a re-analysis of the deposited data

How the results depend on the processing

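The counts of called members depended little on the test and scaling. Members called higher numbered 9 with RLE, upper quartile or library size scaling and with limma-voom, 8 with DESeq2 and 8 to 9 without one library. Members called lower numbered 4 with RLE, DESeq2 and limma-voom, 3 with upper quartile or library size scaling and 3 to 4 without one library. A minimum mean of 50 left 3 called higher, since fewer genes were tested. Looser rules gave 8 lower at a fold change of 1.5 and 12 with no fold change threshold. For the other potassium-handling genes, 2 were called higher at a minimum mean of 50 and 11 with no fold change threshold (4 to 6 without one library). Of these genes, those called lower numbered 0 with upper quartile scaling, library size alone or a minimum mean of 50, 5 at a fold change of 1.5 and 8 with no fold change threshold (0 to 1 without one library).

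The median log2 fold change of the tested members had no steady sign. It was 0.00 with upper quartile scaling, 0.04 with library size alone and -0.22 to 0.14 without one library, positive without WT replicate 1 (0.09) or Delta-TRRAP replicate 2 (0.14). Of 344 refits of single named members, 337 kept direction and call (adjusted p and fold change together), 6 lost the call (KCNMA1 and KCNH4) and KCNJ14 turned to -0.10 without Delta-TRRAP replicate 3 (-0.10 to 0.23 without one library). The refits covered 25 members, of which 13 were called, and the uncalled ones had no call to lose. By the adjusted p alone, KCNJ11 and KCNK2 were lost as stated above, and some genes not counted as passing came under 0.01 in at least 1 fit, among them, at the lowest, KCNIP2 at 0.00144, KCNMB3 at 8.50e-04 and KCNN1 at 0.00307. AKAP9 was lost without WT replicate 2 (0.0121). The cause was not tested.

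Same-numbered libraries did not deviate together (their deviations from group means correlated at 0.082, -0.081 and -0.184 over genes), which gives no pairing of the samples. With the replicate block, 9 members were called higher and 4 lower, and the potassium-handling genes gave 6 and 1, while by the adjusted p alone KCNMB3 came under the threshold (0.00909) and KCNK2 did not pass (0.0149). Depth limits the 11 members under the filter, whose ratios carry wide counting intervals.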
